A study of Arabidopsis thaliana with 72 samples.

Results

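The genes described here had a large daily change of transcript level in isolated mesophyll of Arabidopsis thaliana and a small one in isolated vasculature, in long days and in short days alike. They were chosen by their values: for each probe set with 1 gene, the range was the difference between the highest and the lowest of the 6 means over Zeitgeber time (ZT, hours after lights on), on the log2(intensity + 1) scale. A member had a range of at least 2 in both mesophyll groups and under 1 in both vasculature groups. Of 16722 probe sets with 1 gene, 146 were members, for 146 distinct genes, and all 146 passed the filter on low values, which a gene could do through its mesophyll arrays alone. The ranges in mesophyll and vasculature are therefore a description of the choice, with no test. PPDK, AAH, AT3G21670, AT1G55960 and AT5G35970 were left out by name, of which 1, AT3G21670, met the limits.

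All plants were wild type Col-0 seedlings on Murashige and Skoog medium with sucrose, and no group carried a transgene or mutation. Groups were long day mesophyll, long day vasculature and long day whole leaf (LD, 16 h light and 8 h dark), and the same tissues in short days (SD, 8 h light and 16 h dark). Each of the 6 groups had 12 Gene 1.0 ST arrays, 1 for each of ZT0, ZT4, ZT8, ZT12, ZT16 and ZT20 at day 9 of age and again at day 10. Mesophyll and vasculature were freed with enzymes and sonication, while the label whole leaf stood for whole cotyledons. No label says that the arrays of days 9 and 10 came from separate cultures, so p-values measure the spread between these arrays, which may be technical.

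Mesophyll is the photosynthetic ground tissue of the leaf, and many of its transcripts follow the light and dark cycle through light signalling, sugar supply and the circadian clock. The clock is built from interlocked feedback loops of transcription factors that peak at different times of day. Veins hold xylem, phloem and their companion and parenchyma cells, and their clock genes also cycle.

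The labelled tissues were checked with markers. The summed intensity of the 4 mesophyll markers with a probe set (RCA, LHCB4.1, SBPASE and PRK) was 4766 to 6928 in LD mesophyll and 3699 to 6451 in SD mesophyll, against 1188 to 2306 in LD vasculature and 1066 to 1922 in SD vasculature. The sum of 5 vein and phloem markers (SWEET11, OPS, LHW, CLE41 and GTR2) was 288 to 624 in LD mesophyll and 143 to 695 in SD mesophyll, against 2107 to 4880 in LD vasculature and 2912 to 5676 in SD vasculature. Mesophyll and vein arrays did not overlap on either sum. The 2 epidermis and guard cell markers with a probe set, of 9 listed (FMA and AT4G14480), summed to 4.6 to 5.8 in LD mesophyll and 4.4 to 5.2 in SD mesophyll, against 4.8 to 8.5 in LD vasculature, 4.4 to 7.9 in SD vasculature, 21.9 to 41.3 in LD whole leaf and 10.1 to 31.5 in SD whole leaf. None of the 6 xylem markers listed had a probe set with 1 gene. Over the kept probe sets, the arrays of day 9 and day 10 at a given time correlated at 0.969 to 0.995, with the lowest value for LD whole leaf at ZT0 and the next 6 lowest values all in SD mesophyll.

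Most members were higher in mesophyll than in veins. Mean levels over the day were higher in mesophyll than in vasculature for 132 members in LD and 130 in SD, with median differences of 1.74 and 1.68. These levels come from the arrays that chose the members, and a small vein range is met by genes that are dim in veins, so the differences describe the choice and have no test. The vein mean was under 3 on the log2(intensity + 1) scale in both day lengths for 111 members. The median of their vein means was 1.97 in LD and 2.0 in SD, and 75 of them in LD and 77 in SD lay below the medians of all vein arrays, which were 2.18 to 2.2 in LD and 2.19 to 2.22 in SD. In these 111, a steady transcript and one too dim for a range to be measured cannot be told apart, and in bulk samples fewer cells of a type and less RNA per cell cannot be told apart either. The vein mean was under 3 in 1 day length alone for EXO and AT2G15830. It was at least 3 in both day lengths for 33 members, namely ARD4, BUB3.1, DECOY, FBL17, FDH, PRXR1, VTC4, XTH32, AT1G01730, AT1G02270, AT1G16350, AT1G17360, AT1G18320, AT1G25260, AT1G32090, AT1G71695, AT1G75370, AT2G25950, AT2G36835, AT2G40360, AT3G01490, AT3G05510, AT3G12510, AT3G16670, AT3G27050, AT4G17790, AT4G21215, AT4G27390, AT4G29790, AT5G18630, AT5G18760, AT5G48530 and AT5G51570.

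Over the 146 members the mesophyll range had a median of 2.66 in LD (2.01 to 5.62) and 2.62 in SD (2.0 to 5.67). The vein range had a median of 0.43 in LD and 0.49 in SD. In mesophyll, the peak of the 6 means fell at ZT0, ZT4, ZT8, ZT12, ZT16 and ZT20 for 25, 26, 42, 13, 21 and 19 members in LD, and for 33, 32, 41, 21, 10 and 9 members in SD. The peak time was the same in both day lengths for 68 members and differed by at most 4 h for 110. A peak at ZT8 in both day lengths was the most common pairing, with 30 members, and 17 peaked at ZT0 and 15 at ZT4 in both. The share of all kept probe sets with these 3 pairings was not counted, so they are not read as a trait of the members.

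The limits cut through a continuum. The members nearest the mesophyll limit were AT1G07400, PUP15 and AT2G38240, with smaller mesophyll ranges of 2.0, 2.01 and 2.01. On the other side stood AT5G41140, AT1G48540 and AT1G74330, with SD mesophyll ranges of 1.99 each. The members nearest the vein limit were AT1G67900, AT2G47890 and PUB19, whose larger vein ranges were 0.98, 0.97 and 0.96, and AT1G75460, AT4G27640 and AT1G76580 lay outside at 1.00, 1.01 and 1.01. A range of at least 2 in both mesophyll groups occurred in 382 one-gene probe sets, of which 150 had a range of at least 1 in both vein groups. With mesophyll and vasculature exchanged, the same limits were met by 45.

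**Figure D1:**
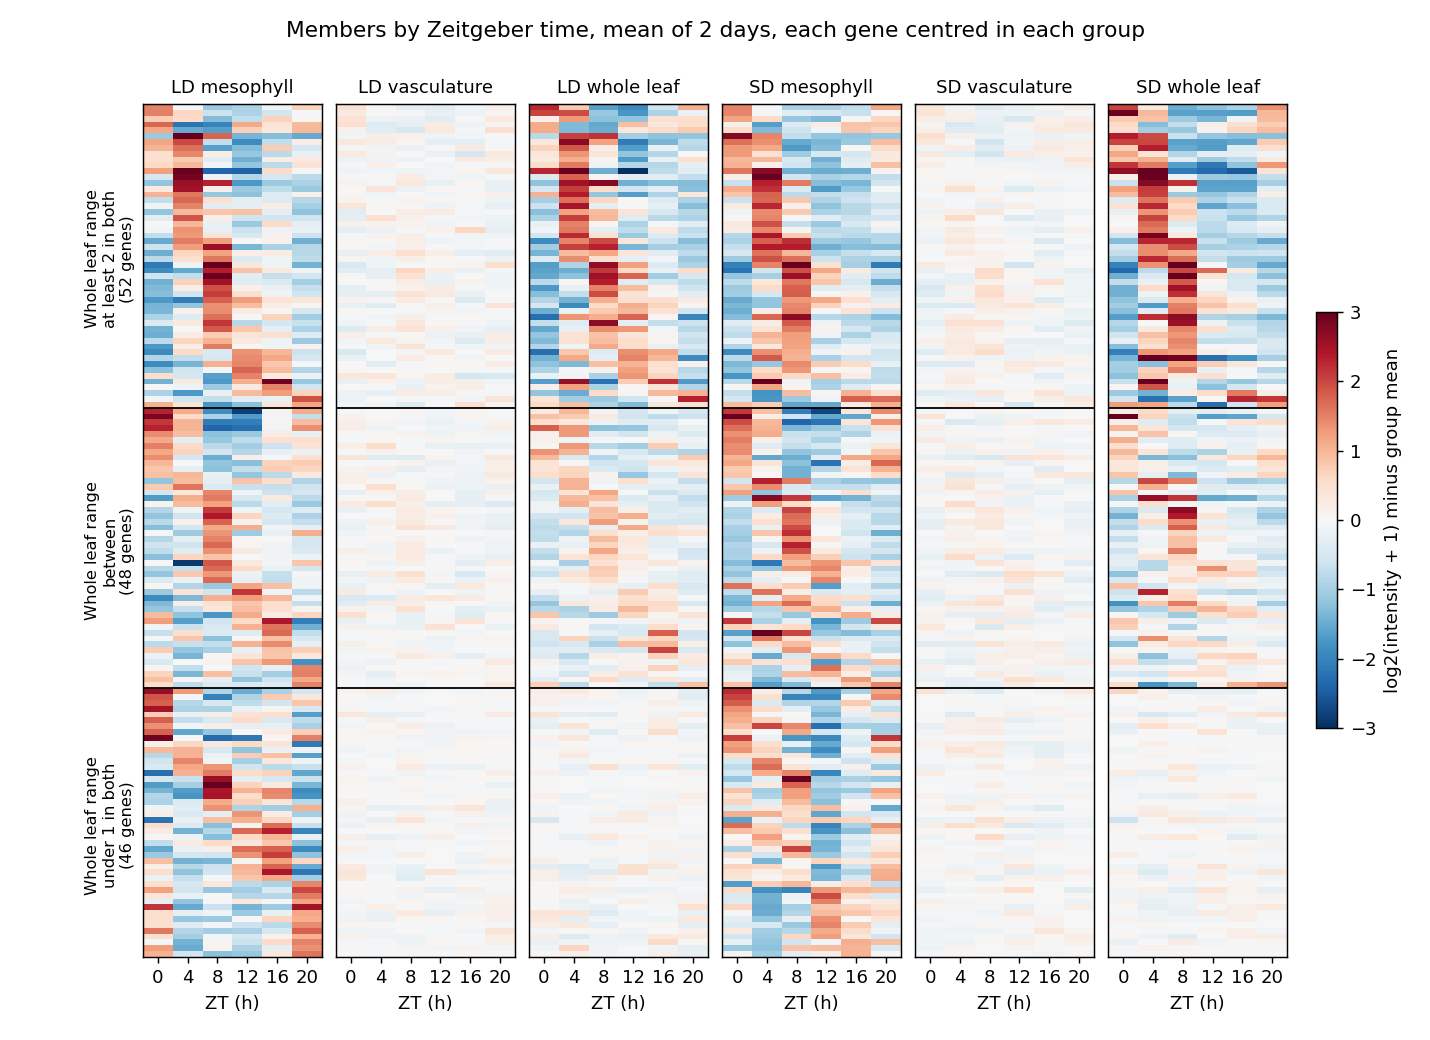
Mean level at each Zeitgeber time (columns, hours) of the 146 members (rows) in the 6 groups, as log2(intensity + 1) minus the gene's mean in that group. Rows are split by the whole leaf range, with 52, 48 and 46 genes; the upper block shows bands at the same times in mesophyll and whole leaf, and the lowest block shows bands in mesophyll alone.

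The whole leaf arrays took no part in the choice and split the members into 3 sets. In whole leaf, 52 members also had a range of at least 2 in both day lengths, 46 had a range under 1 in both, and 48 lay between. Over all kept probe sets, 4.07% had a whole leaf range of at least 2 in both day lengths and 70.2% a range under 1 in both. A 24-hour cosine in whole leaf passed limma's moderated F test, with p adjusted after Benjamini and Hochberg across the whole kept table and a threshold of 0.03, for 51 of 146 members in LD and 94 in SD. The same call was made for 9.52% of all kept probe sets in LD and 34.7% in SD. Both day lengths were called for 49 members, LD alone for 2, SD alone for 45 and neither for 50. The median whole leaf amplitude was 0.61 in LD and 0.67 in SD for members, beside 0.17 in both for all kept probe sets. Of the 382 genes with a mesophyll range of at least 2 in both day lengths whatever their vein range, which include the members, 190 were called in LD and 305 in SD.

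**Figure D2:**
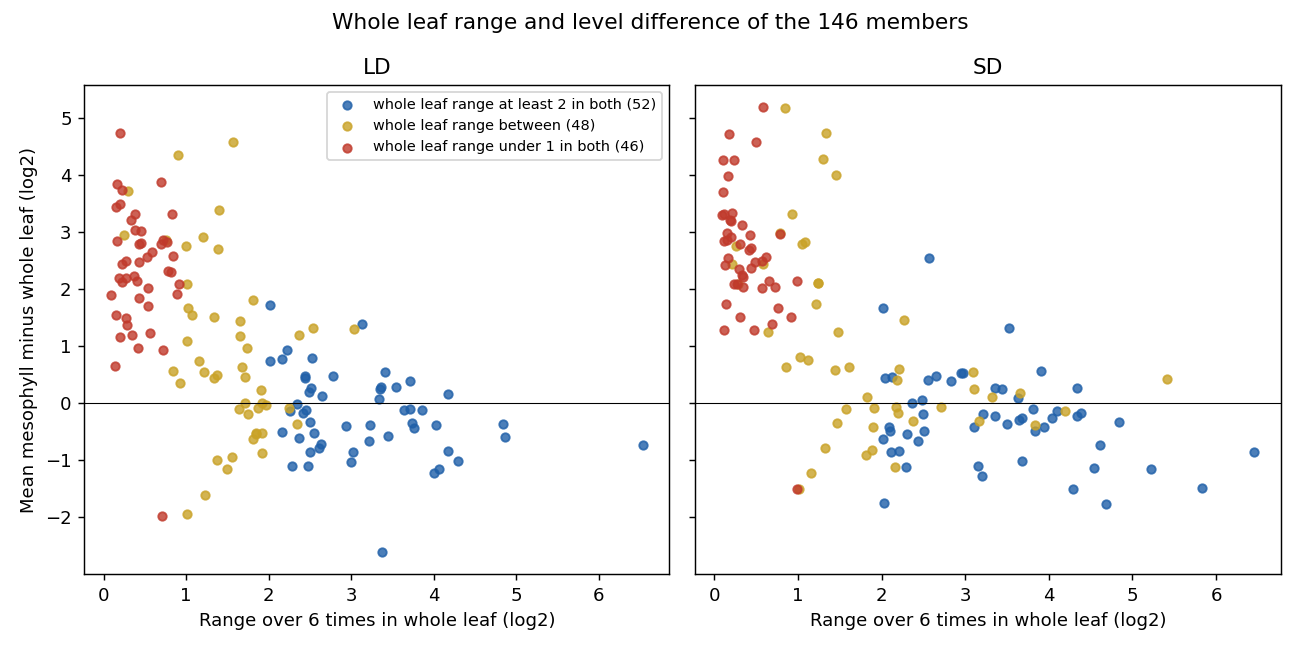
Mean level in mesophyll minus mean level in whole leaf (log2) against the range over 6 times in whole leaf (log2) for the 146 members, 1 point a gene, in LD and SD. Points with a whole leaf range under 1 in both day lengths lie mostly above 0, with medians of 2.38 in LD and 2.55 in SD. Points with a range of at least 2 in both lie on both sides of 0.

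The 52 members with a whole leaf range of at least 2 in both day lengths had mesophyll time courses close to those of whole leaf. The mesophyll and whole leaf peaks fell at the same ZT in 40 of them in LD and 43 in SD, and within 4 h in 49 and 51. In the 46 with a whole leaf range under 1, the same ZT was shared by 15 in LD and 12 in SD. Within 4 h lay 24 and 27 of the 46. The share over all kept probe sets was not counted. The median mesophyll minus whole leaf difference of their mean levels was small, at -0.25 in LD and -0.28 in SD. Single members ran from -2.61 to 1.71 in LD and from -1.76 to 2.55 in SD. In mesophyll the time course of day 9 correlated with that of day 10 at a median of 0.954 in LD and 0.948 in SD over 6 times. The vein mean was under 3 in both day lengths for 35 of the 52. The whole leaf cosine was called in both day lengths for 28 of them, and in neither for AT1G16350 and ARD4. The arrays tested here also split off the 52 by their range, so these counts describe the split. A missing call need not mean a poor repeat. In LD whole leaf ARD4 read 5.88 and 5.55 at ZT4 and 3.26 and 3.33 at ZT12 on days 9 and 10.

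AT4G21215 had the largest range of all members by the smaller of its LD and SD mesophyll ranges, the measure that ranks members throughout. In LD mesophyll it averaged 1.62, 3.59, 7.24, 4.09, 3.59 and 2.34 at ZT0 to ZT20, and in SD mesophyll 1.91, 5.42, 7.14, 4.39, 2.94 and 1.85. The ZT8 peak reached 7.30 and 7.18 on days 9 and 10 in LD mesophyll and 7.22 and 7.05 in SD mesophyll, against 4.1 in LD vasculature and 5.22 in SD vasculature as means of 2 days. In veins it was well above the array medians yet kept within 3.71 to 4.65 in LD and 4.49 to 5.37 in SD. Whole leaf followed mesophyll, with 7.40 at ZT8 in LD and 8.30 in SD, and cosine amplitudes of 1.86 in LD (adjusted p = 0.00642) and 2.30 in SD (adjusted p = 0.000868), by limma.

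TBL26, of a family of enzymes that acetylate cell wall polysaccharides, had a time course that depended on day length. In LD mesophyll it averaged 2.94, 4.63, 2.63, 5.41, 7.27 and 3.21 at ZT0 to ZT20, with a smaller rise at ZT4 and its peak at ZT16, when the lights went off. In SD mesophyll it averaged 2.48, 6.77, 3.18, 2.27, 2.47 and 2.49, with the ZT4 peak alone. Whole leaf showed both features, at 7.57 for ZT4 and 7.13 for ZT16 in LD, against 7.30 and 2.47 in SD, and veins stayed between 2.25 and 2.82. The 24-hour cosine was called by limma in SD whole leaf (amplitude 1.77, adjusted p = 0.0297) and not in LD whole leaf (amplitude 0.64, adjusted p = 0.867), where the course had 2 peaks.

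AT2G15020 had a morning peak in both day lengths and, in LD, a second high level at ZT16 and ZT20. Its LD mesophyll means were 5.74, 7.56, 2.12, 2.07, 5.06 and 4.44, and its SD mesophyll means 4.85, 5.98, 1.82, 1.76, 1.78 and 3.32. Veins lay between 1.59 and 2.19 at all times. Its whole leaf range was 6.54 in LD and 6.45 in SD, the largest of any member in each day length.

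AT2G47890 and AT3G55240 were the other 2 of the 12 members with the largest ranges that also cycled widely in whole leaf. AT2G47890 averaged 2.16, 2.48, 6.36, 4.86, 4.32 and 3.89 in LD mesophyll and 2.26, 3.93, 6.41, 5.63, 4.72 and 3.88 in SD mesophyll, with an afternoon peak. Its vein means had a lower peak at the same time, 2.71 in LD and 2.61 in SD at ZT8, and this member lay close to the vein limit. AT3G55240 averaged 1.85, 6.48, 4.71, 1.56, 1.68 and 1.45 in LD mesophyll and 5.54, 4.26, 2.04, 1.62, 1.59 and 1.65 in SD mesophyll. Its peak thus stood at ZT4 in LD and at ZT0 in SD, and whole leaf was high at ZT4 and ZT8 in LD (4.73 and 4.84) and at ZT0 and ZT4 in SD (5.05 and 4.67).

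Other members with a symbol and a large whole leaf range covered wall, vitamin and signalling functions; symbols were used to pick them after their values had been seen. VTC4, an enzyme of ascorbate synthesis, peaked at ZT4 in mesophyll, at 6.59 and 6.47 on the 2 days in LD and 6.03 and 5.99 in SD, with troughs of 2.91 and 2.12. ARD4, an acireductone dioxygenase of methionine salvage, peaked at ZT4 as well, at 5.07 in LD mesophyll and 5.40 in SD mesophyll, while veins held 3.20 to 3.53 in LD and 3.54 to 3.71 in SD. XTH32, a xyloglucan endotransglucosylase/hydrolase that remodels walls, averaged 5.67 at ZT4 in LD mesophyll and 6.50 in SD mesophyll, with veins between 2.94 and 3.56. These 3 genes shared the ZT4 peak in both day lengths and had vein means over the day of at least 3. Their small vein ranges are part of the choice.

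GLR3.5, a glutamate receptor-like channel, peaked at ZT8 at 5.10 in LD mesophyll and 4.90 in SD mesophyll, with troughs of 1.87 and 2.04 at ZT0. TRY, an R3 MYB protein that represses trichome fate, read 4.40 and 4.43 at ZT0 and 4.25 and 5.65 at ZT4 on days 9 and 10 in LD mesophyll, so that its LD peak lay at ZT0 on day 9 and at ZT4 on day 10. In SD mesophyll TRY peaked at ZT4 on both days, at 4.91 and 4.36. AFR, an F-box protein of phytochrome A signalling, peaked at ZT0 at 5.13 and 5.23 in LD mesophyll and at 4.49 and 4.74 in SD mesophyll. In the LD whole leaf arrays at ZT0, TRY read 6.11 on day 9 and 3.47 on day 10 and AFR 6.95 and 5.29; this is the pair of arrays that agreed least.

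RR16, a type-A response regulator induced by cytokinin, was a night gene. Its LD mesophyll mean was 4.32 at ZT20 (3.55 and 5.09 on days 9 and 10) and between 1.69 and 2.34 at the other times. In SD mesophyll it was already at 3.29 at ZT12, 4 h after lights off, and at 5.20 and 5.10 at ZT16 and ZT20. Whole leaf ran above mesophyll in the night, at 5.32 at ZT20 in LD and 6.84 at ZT16 in SD, and veins stayed between 1.71 and 2.30 in the means.

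**Figure D3:**
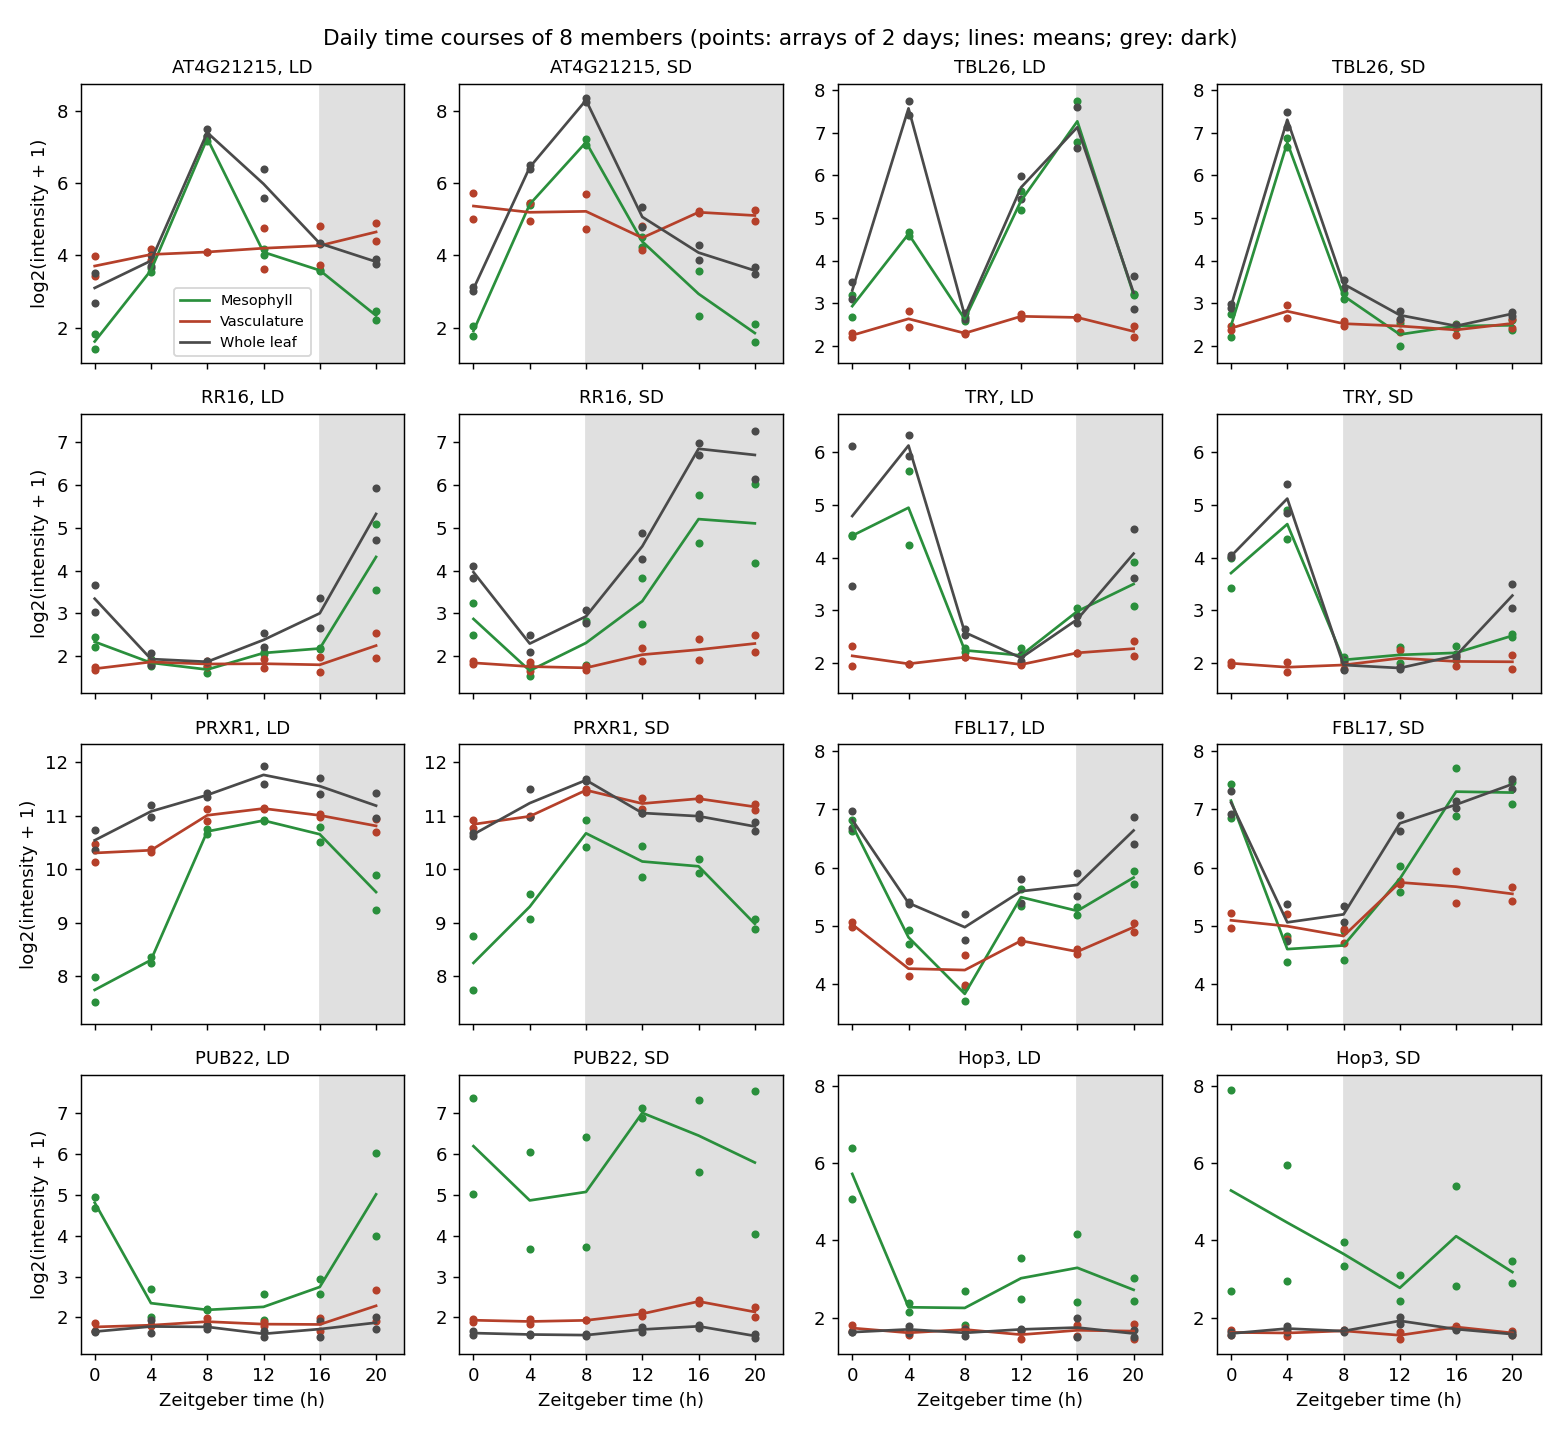
Level in log2(intensity + 1) against Zeitgeber time (hours) for 8 members in LD (left of each pair) and SD, in mesophyll, vasculature and whole leaf; points are single arrays of days 9 and 10, lines join their means and grey marks the dark. AT4G21215, TBL26, RR16 and TRY change in mesophyll and whole leaf alike, PRXR1 and FBL17 change less in whole leaf than in mesophyll, and PUB22 and Hop3 change in mesophyll alone, with wide gaps between the days in SD.

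In the 48 members between these limits the whole leaf course was smaller than that of mesophyll, or large in 1 day length. AT5G48540 stood second among all members by the smaller of its mesophyll ranges, 5.11 in LD and 4.86 in SD. It averaged 9.35, 8.15, 5.18, 4.25, 7.14 and 8.16 in LD mesophyll at ZT0 to ZT20, and 9.42, 8.19, 5.24, 4.56, 7.63 and 8.71 in SD mesophyll. Veins lay between 1.89 and 2.13 in every mean, and whole leaf reached only 3.46 in LD and 2.69 in SD, both at ZT4. The mesophyll mean thus stood 4.57 above whole leaf in LD and 5.17 above it in SD.

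AT5G48530 is the direct neighbour of AT5G48540 on chromosome 5 in the RefSeq gene order, with no gene between them and no overlap. It averaged 9.64, 8.54, 5.44, 5.46, 7.64 and 8.47 in LD mesophyll and 9.59, 8.60, 5.26, 5.42, 8.01 and 8.92 in SD mesophyll, nearly the course of its neighbour. Across the 24 mesophyll arrays, which share both genes' times and days, the pair correlated at 0.982. Its vein means were higher than those of AT5G48540, at 2.88 to 3.26 in LD and 2.87 to 3.66 in SD. Of the other 4 pairs of members that lay next to or near each other, AT1G01450 and AT1G01453 correlated at 0.971, AT1G76955 and AT1G76960 at 0.897, AT1G22540 and AT1G22570, with 2 genes between them, at 0.764, and AT5G62350 and AT5G62360 at 0.703. Cross-hybridisation between neighbours was not tested.

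AT1G80130 and AT2G47780 also belonged to the 12 with the largest ranges. AT1G80130 averaged 6.77, 4.54, 3.04, 2.29, 3.88 and 3.25 in LD mesophyll and 7.01, 3.97, 3.19, 2.23, 2.21 and 3.96 in SD mesophyll, with its peak at ZT0 in both. Whole leaf matched this in SD, at 7.10 for ZT0, and had only 3.68 there in LD. AT2G47780 averaged 6.07, 3.16, 4.24, 5.41, 7.24 and 2.73 in LD mesophyll and 6.42, 3.34, 4.00, 2.5, 3.19 and 6.31 in SD mesophyll. ZT0 was its highest time in SD mesophyll on both days, but the height rested on 8.93 on day 9, against 3.91 on day 10. Whole leaf stayed at 1.76 to 2.01 in LD. In SD whole leaf it read 3.05 and 2.95 at ZT0 on days 9 and 10, its highest time there on both days.

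PRXR1, a peroxidase, was the member with the highest vein level. It averaged 7.74, 8.30, 10.71, 10.91, 10.65 and 9.57 in LD mesophyll and 8.25, 9.30, 10.67, 10.14, 10.05 and 8.98 in SD mesophyll, against vein means over the day of 10.77 in LD and 11.17 in SD. The vein range was 0.83 in LD and 0.64 in SD, at a level where a larger range could be measured. In mesophyll it was low at ZT0, at 7.51 and 7.98 on the 2 days in LD and 7.75 and 8.75 in SD, and all 4 of these lay below every vein and whole leaf array. Whole leaf had a small called rhythm, with amplitudes of 0.53 in LD (adjusted p = 0.0091) and 0.40 in SD (adjusted p = 0.0106), by limma.

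FDH, formate dehydrogenase (AT5G14780), had a mesophyll trough at ZT4, at 5.37 in LD and 4.79 in SD, with peaks of 7.61 at ZT16 in LD and 7.33 at ZT12 in SD. Veins held 7.44 to 7.99 in LD and 7.46 to 7.85 in SD, and whole leaf dipped at ZT4 as mesophyll did, to 6.84 in LD and 5.48 in SD. FBL17, an F-box protein of the cell cycle, was lowest at ZT8 in LD mesophyll (3.83) and at ZT4 in SD mesophyll (4.60), and highest at 6.73 at ZT0 in LD and 7.30 at ZT16 in SD. DECOY was lower in mesophyll than in veins throughout, with mesophyll means between 1.71 and 4.58 in LD and 2.85 and 5.10 in SD, against 5.31 to 6.17 in LD vasculature and 6.20 to 6.71 in SD vasculature. In FDH and DECOY every mesophyll mean of a time was below the vein mean of the same time, apart from FDH at ZT16 in LD.

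The other genes with symbols between the whole leaf limits were EXLA1, FAMT and AGL65. EXLA1, an expansin-like protein, peaked at ZT8 in LD mesophyll at 4.65 and at ZT12 in SD mesophyll at 4.70. FAMT, a farnesoic acid methyltransferase, peaked at 4.95 at ZT16 in LD mesophyll and at 7.01 at ZT4 in SD mesophyll, where day 10 alone was highest at ZT8. AGL65, a MADS-box protein, peaked at 7.47 at ZT16 in LD mesophyll, and its SD mesophyll course repeated poorly, with a correlation of 0.22 between days 9 and 10.

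The 46 members with a whole leaf range under 1 in both day lengths were dim in whole leaf. The whole leaf mean was under 3 in both day lengths for 41 of them, and mesophyll was at least 1 above whole leaf for 42 in LD and 45 in SD, with median differences of 2.38 and 2.55. This set was split off by its whole leaf range, which dim genes meet, so these differences describe the split. The whole leaf cosine was called in neither day length for 37 of the 46 and in both for AT3G05510. These calls come from the arrays that made the split, so their counts describe the split as well. The exception in level was AT1G71695, which was lower in mesophyll (6.63 in LD and 7.06 in SD over the day) than in whole leaf (8.62 in LD and 8.56 in SD), with its trough at ZT0 in mesophyll at 4.41 in LD and 5.45 in SD.

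Transcripts of early wounding and tissue isolation moved with the contrast between isolated mesophyll and whole leaf. The summed intensity of 8 such genes (STZ, ABR1, ORA47, CML37, CML38, PUB22, PUB23 and AR781, of 12 listed) was 4217 to 6216 in LD mesophyll and 4767 to 6881 in SD mesophyll, against 87.1 to 353 in LD vasculature, 207 to 686 in SD vasculature, 21.8 to 45.9 in LD whole leaf and 19.0 to 27.6 in SD whole leaf. The sums of the 3 tissues did not overlap. All 8 had a whole leaf mean under 3, and 5 had a vein mean under 3 in LD and 4 in SD. The highest vein means were those of STZ (6.93 in LD and 8.13 in SD) and ORA47 (4.70 and 6.06). PUB22 is itself a member. The part of tissue isolation in the mesophyll values of these 46 members was not tested.

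The time courses of these 46 repeated less well between the 2 days than those of the 52, and least in SD. The median correlation of day 9 with day 10 was 0.84 in LD mesophyll and 0.44 in SD mesophyll over 6 times, with values of at least 0.8 for 26 and 8 of the 46. The median standard deviation between the 2 arrays of a time was 0.556 in LD and 1.27 in SD. In SD mesophyll 7 of the 46 were at least 1 higher on day 10 than on day 9 over the 6 times and 15 at least 1 lower, while 1.22% of all kept probe sets were at least 1 apart; none of the 52 was. In LD mesophyll no member was at least 1 apart.

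**Figure D4:**
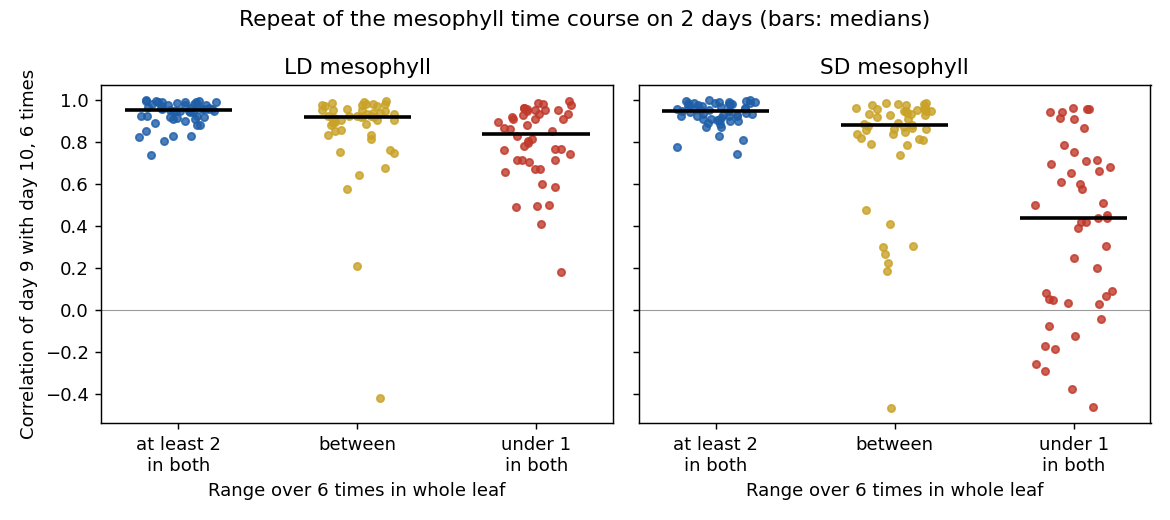
Pearson correlation of the 6 arrays of day 9 with those of day 10 in LD mesophyll (left) and SD mesophyll, 1 point a member, by whole leaf range; bars are medians. Members with a whole leaf range of at least 2 lie near the top in both, at medians of 0.954 and 0.948, and those with a range under 1 spread down to -0.46 in SD.

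Chaperone and ubiquitin ligase genes stood among the 46. Hop3, an organizing co-chaperone of HSP70 and HSP90, read 6.38 and 5.06 at ZT0, the time of its highest mean, in LD mesophyll on days 9 and 10, and 7.88 and 2.70 in SD mesophyll. Its SD mesophyll mean was 4.96 on day 9 and 2.85 on day 10, so its SD peak was seen on 1 day. Fes1A, which binds HSP70, averaged 6.07 at ZT0 in LD mesophyll and 6.04 at ZT8 in SD mesophyll, with a correlation between days of 0.76 in LD and -0.17 in SD.

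PUB22, a U-box ubiquitin ligase, read 4.67 and 4.95 at ZT0 and 6.03 and 3.99 at ZT20 in LD mesophyll and at most 2.93 at the other times. In SD mesophyll its 12 arrays ran from 3.68 to 7.54 with a median of 6.24, and the 2 days were more than 1 apart at ZT0 (5.02 and 7.37), ZT4 (6.05 and 3.68), ZT8 (3.72 and 6.42), ZT16 (5.57 and 7.33) and ZT20 (4.04 and 7.54). At ZT12 they were 6.89 and 7.12. Veins were at 1.66 to 2.67 in LD and 1.84 to 2.44 in SD, and whole leaf at 1.52 to 2.02 in LD and 1.5 to 1.82 in SD. PUB19, of the same ligase family, averaged 6.83 at ZT16 in LD mesophyll and 6.54 at ZT0 in SD mesophyll, with whole leaf at 1.44 to 1.89 in all 24 arrays.

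EXO, a brassinosteroid-responsive gene, was high in the night in mesophyll. It read 5.30 and 5.54 at ZT20 in LD mesophyll, and 5.13 and 6.83 at ZT12 in SD mesophyll, each 4 h after lights off. In means of the 2 days, a ZT20 peak in LD was paired with a ZT12 peak in SD in 11 members (7.53%, where 4.41% of all kept probe sets had this pairing), 9 of them among the 46 (EXO, PUB22, AT1G64380, AT1G66090, AT1G68340, AT5G05190, AT5G05300, AT5G47070 and AT5G61560) and none among the 52. The pairing was present on day 9 alone in all 11, and on day 10 alone in 3 of them, EXO, AT5G05300 and AT5G47070. For EXO the SD mesophyll mean was 4.07 on day 9 and 5.28 on day 10, with the same times high on both.

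Of the 12 members with the largest ranges, 3 belonged to the 46. AT1G36622 averaged 7.33, 4.40, 2.11, 2.29, 4.48 and 5.95 in LD mesophyll and 6.46, 4.22, 2.66, 2.47, 4.03 and 6.55 in SD mesophyll, while whole leaf stayed at 1.47 to 2.38 over all 24 arrays. BUG22, whose relatives act in cilia of other organisms, averaged 6.83, 5.48, 3.29, 2.72, 3.24 and 3.67 in LD mesophyll and 6.23, 4.15, 3.13, 2.30, 3.02 and 5.15 in SD mesophyll. AT3G21660 averaged 6.96, 5.0, 3.04, 4.15, 5.83 and 5.38 in LD mesophyll and 5.99, 4.44, 1.96, 2.03, 3.99 and 5.40 in SD mesophyll. All 3 peaked around dawn and fell to a trough at ZT8 or ZT12, and their days correlated at 0.93 to 0.95 in LD and 0.86 to 0.96 in SD, above the medians of the 46.

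AT1G71000 was high at 1 time. In LD mesophyll it read 4.56 and 5.21 at ZT8, and in SD mesophyll 7.30 and 7.68 at ZT8, while its means at all other times were at most 2.70. Whole leaf reached 2.0 at ZT8 in SD and 1.73 at its highest mean in LD. The remaining genes with symbols in this set were BUB3.1 (spindle checkpoint), ZAT7 (a zinc finger protein), RR18 (a type-B response regulator of cytokinin signalling) and PUP15 (a purine permease), whose smaller mesophyll ranges were 2.29, 2.09, 2.05 and 2.01 and whose SD days correlated at 0.71, 0.20, 0.75 and 0.03. The other members ranked 13 to 30 by the smaller mesophyll range were AT5G42250, AT1G13650, AT3G46370, AT1G08890, AT1G69890, AT5G59530, AT4G16940, AT4G12830, AT1G18360, AT1G69160, AT2G29310, AT1G22570, AT1G65490 and AT2G36630, with mesophyll ranges of 2.98 to 4.75.

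On day 9 or day 10 taken alone the rule held for most members, but fewer met it on both days. With the 6 arrays of day 9 alone 101 of the 146 met the rule, with day 10 alone 100, on each day 69 and on neither day alone 14. The same arrays, averaged over days, chose the members, so these counts are a description. The 14 were AT2G47780, EXO, FBL17, BUB3.1, ZAT7, AGL65, AT1G16350, AT1G75370, AT1G25260, AT3G49160, AT1G67900, AT5G50915, AT3G15356 and AT1G73655. AT3G16670 met the limits on each day with time courses that differed between the days: its mesophyll days correlated at -0.42 in LD and 0.27 in SD, its veins held 10.48 in LD and 10.53 in SD, and its mesophyll mean was 6.49 in LD and 5.82 in SD.

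Day length changed the mean level of a few members, compared as LD minus SD over the 6 times with limma; a call needed a difference of 1 or more and an adjusted p below 0.05. In mesophyll 22 members were called, 8 higher and 14 lower in LD, where 1.22% of all kept probe sets were called, 0.385% higher and 0.834% lower. This was 15.1% of members. Of the 382 genes with a mesophyll range of at least 2 in both day lengths, members included, 12.6% were called. The mesophyll arrays took part in the choice through their ranges. In whole leaf 9 members were called, 5 higher and 4 lower in LD, where 1.86% of all were called, 0.976% higher and 0.889% lower. This was 6.16% of members, beside 11.3% of the 382. In vasculature 0 members passed limma's call, where 1.48% of all were called, 0.747% higher and 0.728% lower in LD. There 45 members had an unadjusted p under 0.05, and the largest absolute difference was 0.937. The vein arrays took part in the choice, and 111 members had vein means under 3 in both day lengths, where a difference of 1 has little room. The 0 is therefore read as a description of the choice. TBL26, AT2G15020, AT5G21100 and AT5G24155 were called in mesophyll and in whole leaf, higher in LD each time.

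In whole leaf AT5G24155 ran from 4.23 to 8.03 with a median of 6.50 in LD, against 1.73 to 7.86 with a median of 2.76 in SD. The groups overlapped over the day, and the means were apart by 2.16 ± 0.17 (SE, n = 12 arrays each, limma adjusted p = 1.34e-07). At ZT12 it averaged 7.73 in LD and 1.84 in SD, and its arrays there were 7.43 and 8.03 in LD. AT3G16670 ran from 7.25 to 9.73 in LD whole leaf, against 4.21 to 7.63 in SD whole leaf, with little overlap and a difference of 2.26 ± 0.35 (adjusted p = 9.79e-05). TBL26 differed by 1.34 ± 0.11 (adjusted p = 3.01e-07), AT5G21100 by 1.2 and AT2G15020 by 1.13.

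RR16 was the member most lowered in LD whole leaf. Its arrays ran from 1.8 to 5.92 with a median of 2.60 in LD, against 2.11 to 7.25 with a median of 4.18 in SD, and the difference was -1.57 ± 0.16 (adjusted p = 1.49e-06, limma). AT4G13575 (-1.5), AT1G10640 (-1.07) and AT1G12845 (-1.01) were lower in LD too. All 9 calls had the same sign on each day, and 7 were at least 1 apart on each.

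The 14 members lower in LD mesophyll were mostly of the set that was dim in whole leaf, 10 of the 14. PUB22 differed most, at -2.67 ± 0.47 (adjusted p = 0.000963), with LD mesophyll arrays at 1.95 to 6.03 (median 2.63) against 3.68 to 7.54 in SD. AT1G59865 followed at -2.37 ± 0.43 (adjusted p = 0.0012), with medians of 4.19 in LD and 7.34 in SD. EXO differed by -1.27 (adjusted p = 0.00579) and AT5G64120, which RefSeq gives as the peroxidase PRX71, by -1.13. The wound sum, which includes PUB22, was also lower in LD mesophyll, with day medians of 5212 and 5223, against 5594 and 6274 in SD mesophyll on days 9 and 10. The ranges overlapped. Its genes were not all lower, since mean levels of ORA47 (9.46 in LD and 8.93 in SD mesophyll) and AR781 (9.94 and 9.84) were higher in LD. The rest of the 8 were lower, STZ by little (10.98 and 11.01). The part of the wound sum in these differences was not tested. Among the 8 higher in LD mesophyll, AT5G64401 differed by 1.49, AT2G15020 by 1.24, AGL65 by 1.12 (adjusted p = 0.0102) and TBL26 by 1.07 (adjusted p = 1.72e-05). All 22 had the same sign on each day, and 13 were at least 1 apart on each.

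**Figure D5:**
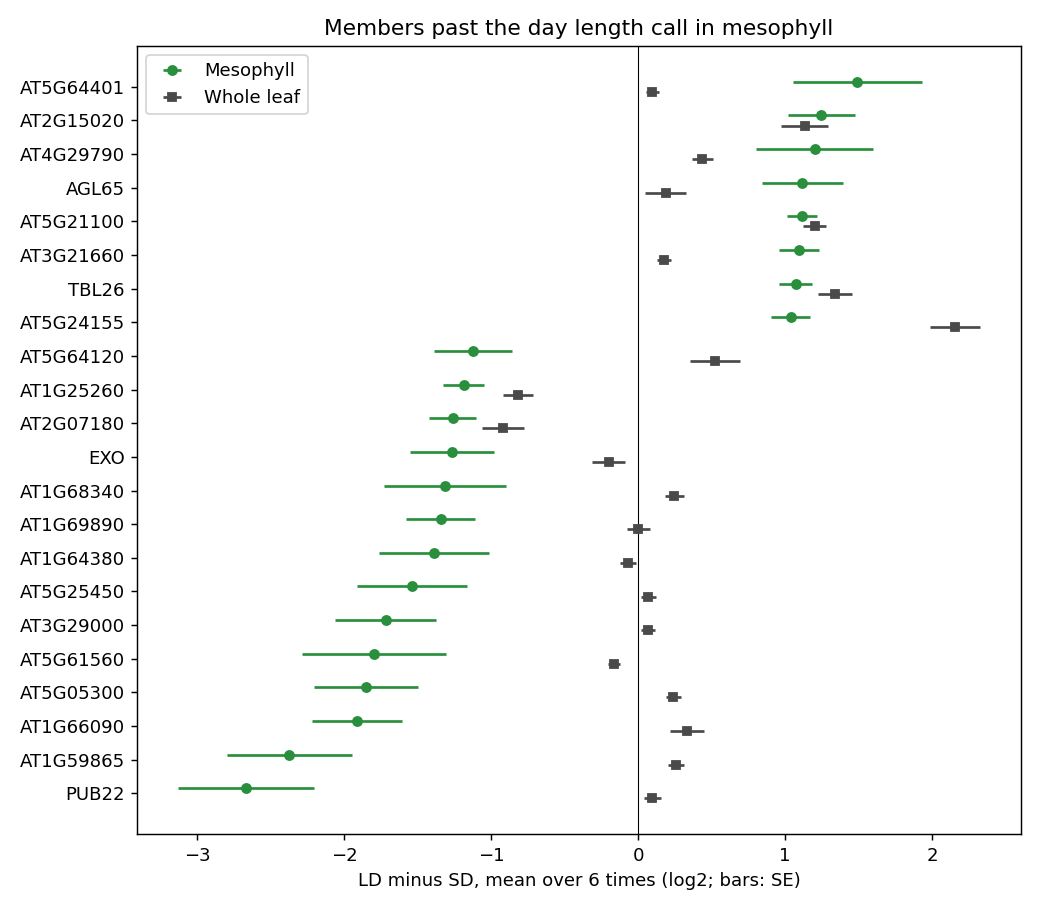
LD minus SD mean over 6 times (log2, bars are SE of the fit) in mesophyll and whole leaf for the 22 members called in mesophyll. The 8 genes higher in LD mesophyll and the 14 lower ones, led by PUB22 at -2.67, lie away from 0 in mesophyll, while most whole leaf points of the lower genes lie near 0.

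At ZT12 and ZT16 LD leaves were in or at the end of the light and SD leaves in the dark. In whole leaf at ZT12, 17 members were called, 11 higher and 6 lower in LD, where 6.37% of all kept probe sets were called, 2.87% higher and 3.5% lower. The 17 were 11.6% of members. Of the 382 genes with a mesophyll range of at least 2 in both day lengths, members included, 27.2% were called. At ZT16, 27 members were called, 17 higher and 10 lower, where 8.75% of all were called, 4.28% higher and 4.47% lower. These were 18.5% of members, beside 34.8% of the 382. The 13 members called at both times had the same sign at both.

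The largest rise was that of AT5G24155, by 5.89 ± 0.42 at ZT12 (adjusted p = 4.09e-07, limma). TBL26 rose by 2.99 ± 0.28 at ZT12 and by 4.66 ± 0.28 at ZT16 (adjusted p = 5.32e-08). AT1G76955 rose by 3.53 and AT5G21100 by 2.49 at ZT12, and GLR3.5 by 1.37 and XTH32 by 1.35. At ZT16 AT2G15020 rose by 2.90, VTC4 by 1.19 and FDH by 1.01. FAMT, at 2.41 (adjusted p = 0.0491), rested on 1 LD array at 6.16, since the other LD array read 1.54 and the SD mean was 1.44.

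RR16 read 2.65 and 3.36 in LD whole leaf at ZT16, against 6.98 and 6.70 in SD whole leaf, and fell by 3.83 ± 0.38 in LD (adjusted p = 3.9e-06). AT2G07180 fell by 2.69 at ZT16, FBL17 by 1.17 at ZT12 and 1.38 at ZT16, and DECOY by 1.22 at ZT16. AT2G47890 fell by 1.69 at ZT12 and 1.07 at ZT16. The whole leaf rhythm, in timing or amplitude, also differed between day lengths for 11 members (7.53%), including RR16 and AT2G07180. Limma's test of that difference, at an adjusted p below 0.05, passed 6.62% of all kept probe sets. It passed 13.4% of the 382 genes with a mesophyll range of at least 2 in both day lengths. For RR16, AT2G07180, FBL17 and DECOY the LD mesophyll mean at ZT16 was also below the SD mesophyll mean.

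None of the 146 members was on 10 pathway lists for nitrogen, starch, sulfate, photorespiration, clock, tetrapyrrole, light harvesting and Calvin cycle, flavonoid, trehalose and cold genes. Few genes of these lists had a probe set with 1 gene, from 0 of 25 for nitrogen assimilation to 6 of 27 for light harvesting and the Calvin cycle and 6 of 15 for cold. Of the 5 clock genes with one, TIC, LIP1 and XCT had vein ranges under 1 in both day lengths. GI, a core component of the clock, had ranges of 7.22 in LD mesophyll and 7.01 in SD mesophyll. Its ranges were 6.57 in LD vasculature and 6.52 in SD vasculature, at vein means of 4.70 and 4.32. COR27 had vein ranges of 3.39 in LD and 5.61 in SD. The vein means of GI lay above the limit of 3, so they do not show what could be measured in the 111 dimmer members.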

How the data were processed

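Leaf tissues of Arabidopsis Col-0 were measured on 72 Affymetrix arrays, 12 in each of 6 groups of tissue and day length taken from the labels. The authors deposited intensity values on a linear scale, and GCRMA normalization is named per the submitters' processing notes, while the version and the annotation behind it were not given in the sources used here. Intensities ran from 0.835 to 18024, with array medians of 3.29 to 3.77, and the number of arrays limits the precision. All 72 value columns belonged to a sample, and 0 did not.

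Of 28583 probe sets, 16722 had 1 gene, 759 several and 11102 were unnamed here; 16574 of the 16722 matched RefSeq, which gave names and neighbour order only. Values were analysed as log2(intensity + 1). The 21827 probe sets above an intensity of 2.773 (the 40th percentile) on at least 6 arrays were tested with limma 3.58.1 in R 4.3.3. The tests were a 24-hour cosine and sine (F test, adjusted p under 0.03), LD minus SD with a term for each group and time (a difference of 1 or more and an adjusted p below 0.05), and the difference of the cosine and sine terms between day lengths (adjusted p under 0.05), with Benjamini-Hochberg adjustment over all 21827. The procedures were tested on simulated data. Tables used pandas 2.3.3 and numpy 2.4.6, and figures matplotlib 3.10.9.

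The members and lists were chosen with earlier results of these data known. Regardless of annotation, 277 probe sets met the range limits, 147 of them with 1 gene. The text names the 30 members with the largest smaller mesophyll range, in full for 12 and for PUB22, which is on a list, and those nearest each limit; the members with a symbol and those past a day length call were named after their values were seen. Alternatives were other pseudocounts, no filter, median centring, single days, replicate blocks, other range limits and leaving out the LD whole leaf array of ZT0 on day 10. Promoter motifs were not searched and no sequences are shown.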

Additional observations from a re-analysis of the deposited data

Results flagged for a closer look

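For 11 members the whole leaf rhythm differed between day lengths, by limma's test of the difference in the cosine and sine terms at an adjusted p under 0.05. They were 7.53% of members, near the 6.62% of all kept probe sets that were called. Of the 382 genes with a mesophyll range of at least 2 in both day lengths, members included, 13.4% were called. The size is the distance between the LD and SD pairs of cosine and sine terms on the log2 scale. It was 1.76 for AT1G69160, 1.71 for AT4G13575, 1.51 for RR16, 1.46 for AT1G10640, 1.38 for VTC4, 1.36 for AT2G07180, 1.08 for AT2G36835, 1.05 for AT3G01490, 1.01 for AT4G17790, 0.99 for AT1G16260 and 0.79 for AT5G48530.

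Fitted peaks lay at 19.9 h in LD and 17.5 h in SD for RR16, with amplitudes of 1.49 and 2.42. For VTC4 they lay at 5.65 h and 2.54 h, with amplitudes of 1.2 and 1.89. AT5G48530 had fitted whole leaf peaks at 1.11 h in LD and 19.0 h in SD, while its mesophyll mean was highest at ZT0 in both day lengths.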

How the results depend on the processing

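The number of members was 146, and it was 248 with limits of 1.5 and 0.75, 57 with a mesophyll limit of 2.5, 192 and 154 on days 9 and 10 alone, 170 with no pseudocount and 112 with a pseudocount of 4. With Zeitgeber time as a factor, 86 members passed in LD whole leaf in place of 51. Single days, with few residual degrees of freedom, gave 0 and 0 calls of cycling in LD whole leaf on days 9 and 10, 1 and 0 in SD whole leaf in place of 94, 2 and 2 calls of a day length difference in whole leaf in place of 9, 0 and 9 in mesophyll in place of 22, and 2 and 0 in vasculature in place of 0. A pseudocount of 4 left 5 whole leaf calls of 9. No direction was reversed under any alternative run.

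Equal replicate numbers in LD and SD marked only a shared time point: deviations of same-numbered arrays correlated at -0.22 to 0.075. With the time point as a replicate block 10 mesophyll differences passed in place of 22 (2 higher and 8 lower in LD), 8 in whole leaf and 0 in vasculature. With the sampling day as a replicate block 47 members cycled in LD whole leaf and 87 in SD. Leaving out the LD whole leaf array of ZT0 on day 10 gave 51 cycling members and 11 day length calls. For the 111 members with a vein mean under 3, low signal limits what the vein range can show.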
